A study of Gallus gallus with 16 samples.

Results

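T-box genes encode transcription factors that bind DNA through a shared domain, the T-box, and 6 of them were followed through growing chicken feathers of the wing, the back and the breast. TBX3, TBX4, TBX5, TBX15, TBX20 and EOMES were taken by name from the 15979 genes of 2 expression tables, one for wing feathers and one for body plumes, and all 6 are listed in both. Another 9 T-box genes are listed in at least 1 of the tables and are described beside them. The study sequenced RNA to compare feathers with narrow and wide vanes. All feathers came from White leghorn chickens, called roosters in the study, and no age is given. The 8 groups were the pulp and the epithelium of the lateral (narrow) side of primary remiges, the flight feathers of the wing, of their medial (wide) side, of dorsal plumes (narrow) and of breast plumes (wide). The pulp is the mesenchymal core of the growing feather, and the epithelium around it forms the vane. There were 2 libraries a group, labelled as batch I and II, and the study treats them as biological replicates. A remige library was made from 3 follicles and a plume library from 25 follicles, with no treatment in any group.

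In vertebrate embryos, T-box factors mark where on the body a tissue lies and which tissue it becomes. TBX5 starts the outgrowth of the forelimb and TBX4 acts in the hindlimb, so the pair is known as a label of limb type. TBX3 is expressed along the margins of the limb bud and in the flank, and TBX15 is known from mice for setting the border between dorsal and ventral coat colour from the dermis. EOMES and TBX20 are better known from other places, EOMES from early mesoderm and from cytotoxic lymphocytes, TBX20 from the heart.

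Pulp libraries were sequenced less deeply than epithelium libraries, with 29.4 to 37.0 against 42.2 to 45.8 M alignments in remiges and 23.4 to 26.1 against 32.6 to 37.7 M in plumes (M, 1000000). The deposited RPKM values, read numbers corrected for the length of the gene and the size of the library, were rescaled to TPM, so that each library sums to 1000000. The markers fitted the labelled tissues. In the pulp groups 7 fibroblast markers summed to 7970 to 16927 TPM, and in the epithelium groups to 145.2 to 264.0 TPM. The 8 keratinocyte markers summed to 738.3 to 1509 TPM in pulp and 3455 to 4834 TPM in epithelium, so they were also found in pulp libraries. The markers differed in this. In lateral remiges KRT14 had means of 695.8 TPM in pulp and 1510 TPM in epithelium, and CLDN1 of 6.69 and 424.6 TPM. Whether this RNA in pulp came from epithelial cells was not tested. Because the 2 tables were made separately, levels in remiges and plumes are set side by side here with no test between them. In bulk tissue, fewer cells of a type and less RNA per cell cannot be told apart.

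Of the 6 genes, the same 1 led in the pulps of the wing, the back and the breast, and the order after it differed. TBX15 had the highest mean of the 6 genes in all 4 pulp groups. In dorsal plume pulp it was followed by EOMES, TBX4 and TBX20, and in breast plume pulp by TBX3 and TBX5. In lateral and medial remige pulp it was followed by TBX3, and neither TBX4 nor TBX5 reached a mean of 1 TPM there. In all 4 epithelium groups TBX3 was the highest of the 6, with TBX20 next.

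**Figure D1:**
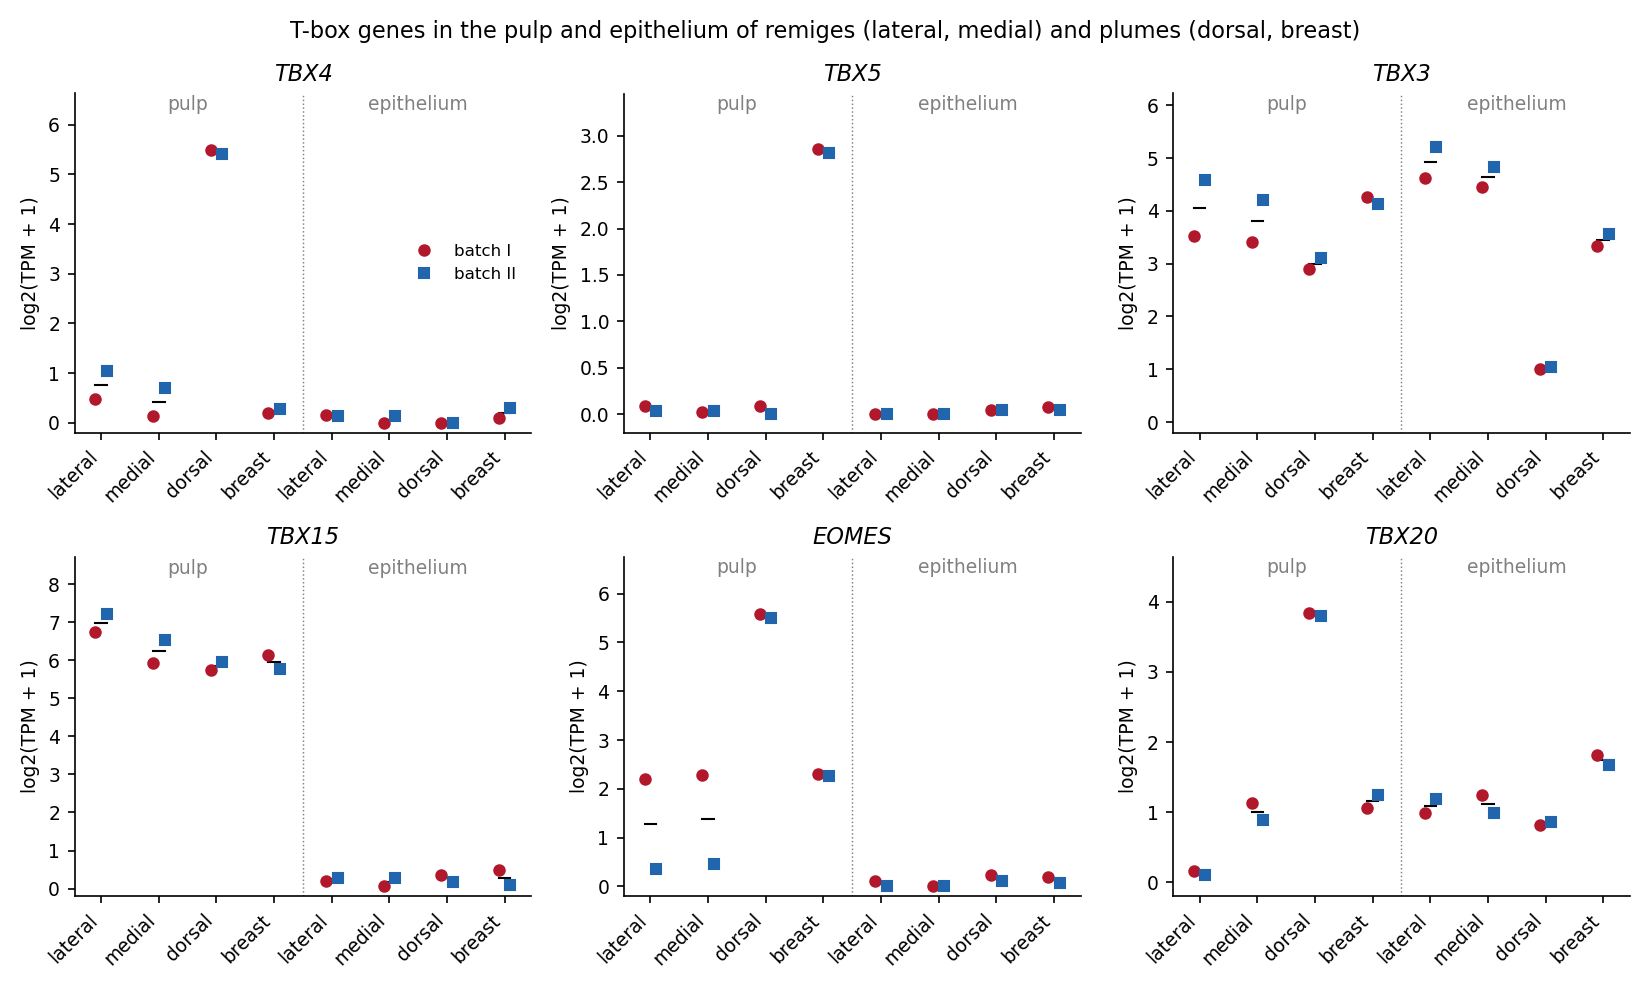
Level of each of the 6 T-box genes, as log2(TPM + 1), in the 2 libraries of each of the 8 groups, with the group mean as a bar. Pulp groups are on the left and epithelium groups on the right of each panel, lateral and medial being remiges and dorsal and breast being plumes. TBX4, EOMES and TBX20 stand highest in dorsal pulp, TBX5 in breast pulp, TBX15 in all pulp groups and TBX3 in remige epithelium.

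TBX4 was a gene of the dorsal plume pulp. It stood at 44.0 and 41.7 TPM in the 2 libraries of dorsal pulp, against 0.147 and 0.212 TPM in breast pulp. In remige pulp it was at 0.385 and 1.06 TPM on the lateral side, against 0.0961 and 0.635 TPM on the medial side. In epithelium it was listed at 0 in both dorsal libraries, against 0.0735 and 0.224 TPM in breast epithelium, and did not exceed 0.114 TPM in remige epithelium. Dorsal pulp was thus far above every other group, and the 3 next groups in the order of means, lateral remige, medial remige and breast plume pulp, overlapped with their neighbours. The difference between dorsal and breast pulp was 5.22 ± 0.15 on the log2(TPM + 1) scale (SE, adjusted p = 9.18e-07, limma, n = 2 libraries each), and the mean TPM was 238.7 times higher in dorsal pulp. A fold change on this scale understates the ratio of a gene that is near 0 in 1 group. Among the plume groups TBX4 reached a mean of 1 TPM, the filter for testing, in dorsal pulp alone. That is the group where it was high, so its call is given as a description. In the RefSeq annotation BRIP1, which encodes a DNA repair helicase, overlaps TBX4, and with no strand setting stated the reads of overlapping genes cannot be told apart. BRIP1 stood at 10.6 and 11.3 TPM in dorsal pulp and at 10.5 and 11.5 TPM in breast pulp, which overlapped. In the same annotation genes of long noncoding RNA overlap TBX3, TBX4 and TBX2. The part of overlapping reads in the values of these T-box genes was not tested.

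TBX5 showed the opposite tract. It was at 0.0608 and 0 TPM in dorsal pulp, against 6.27 and 6.03 TPM in breast pulp, which were the only 2 of the 16 libraries above 0.1 TPM. It was listed at 0 in all 4 libraries of remige epithelium, and in remige pulp it stood at 0.0586 and 0.0212 TPM on the lateral side and 0.0183 and 0.0219 TPM on the medial side. The gene that marks the embryonic forelimb was thus below 0.1 TPM in all 8 libraries of wing feathers. TBX5 was lower in dorsal than in breast pulp by -2.80 ± 0.14 (log2, SE, adjusted p = 6.03e-06, limma). The remige group means lay below the filter of 1 TPM, as those of TBX4 did, and neither gene was tested in remiges. In plumes TBX5 passed that filter through breast pulp alone, the group where it was high, so its call is given as a description.

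TBX3 lies next to TBX5 in the genome and encodes a repressor of the same subfamily as TBX2. It was low on the back in both tissues. In plume pulp it stood at 6.46 and 7.61 TPM in dorsal libraries, against 18.1 and 16.4 TPM in breast libraries. In plume epithelium it stood at 1.01 and 1.07 TPM in dorsal libraries, against 9.12 and 10.8 TPM in breast libraries. The groups did not overlap in either tissue. The log2 difference between dorsal and breast was -1.19 ± 0.15 in pulp (SE, adjusted p = 0.000687) and -2.42 ± 0.15 in epithelium (SE, adjusted p = 6.07e-05, limma). The mean TPM was 2.45 times higher in breast than in dorsal pulp and 9.57 times higher in breast than in dorsal epithelium. Remige epithelium had the highest means, with 23.8 and 35.8 TPM on the lateral side and 20.9 and 27.4 TPM on the medial side. Breast pulp came next by mean and did not overlap with them. Remige pulp stood at 10.5 and 22.9 TPM on the lateral side and 9.59 and 17.4 TPM on the medial side. Lateral remige pulp thus overlapped with medial remige epithelium. The groups from breast pulp down to breast epithelium, with both remige pulps between them, each overlapped with the next.

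TBX15 was shared by every pulp. It stood at 105.5 and 148.1 TPM in lateral remige pulp and 59.9 and 92.3 TPM in medial remige pulp. It stood at 52.8 and 60.8 TPM in dorsal plume pulp and 69.0 and 53.3 TPM in breast plume pulp. In the 8 epithelium libraries it lay between 0.0481 and 0.396 TPM. Dorsal and breast pulp overlapped, with a log2 difference of -0.10 ± 0.19 (SE, adjusted p = 0.752, limma), so the gene known from the dorsal coat of mice had no tract difference beyond the spread here. That difference changed sign with the library left out, to 0.09 without batch I of breast pulp and 0.00 without batch I of dorsal pulp.

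EOMES, like TBX4, peaked in dorsal pulp. It stood at 47.2 and 44.4 TPM in dorsal pulp, against 3.93 and 3.77 TPM in breast pulp, and the log2 difference was 3.27 ± 0.15 (SE, adjusted p = 4.14e-06, limma). The mean was 11.9 times higher in dorsal pulp, by 12.0 times in batch I and 11.8 times in batch II. In plume epithelium it was at 0.172 and 0.0813 TPM in dorsal libraries and at 0.135 and 0.0550 TPM in breast libraries, which overlapped. Because EOMES is also a gene of cytotoxic T and NK cells, 8 markers of these cells were summed. They came to 123.2 and 135.4 TPM in dorsal pulp, against 161.0 and 144.3 TPM in breast pulp. Of the 8 markers 0 passed the test in either direction, where 28.2% of all genes did. The part of these cells in the EOMES difference was not tested.

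TBX20 changed in opposite directions in the tissues of the plume. In pulp it stood at 13.4 and 12.9 TPM in dorsal libraries, against 1.08 and 1.38 TPM in breast libraries. In epithelium it stood at 0.762 and 0.811 TPM in dorsal libraries, against 2.52 and 2.19 TPM in breast libraries. Neither pair of groups overlapped. The log2 difference between dorsal and breast was 2.67 ± 0.15 in pulp (SE, adjusted p = 9.51e-06) and -0.91 ± 0.15 in epithelium (SE, adjusted p = 0.00493, limma). The epithelial call was lost without the batch I library of breast epithelium, where the difference was -0.84 (adjusted p = 0.0535, limma). Dorsal plume pulp had the highest TBX20 of the 8 groups and breast plume epithelium the next, without overlap between them.

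At an adjusted p under 0.05, dorsal pulp thus had more of 3 of the 6 genes and less of 2 than breast pulp, and TBX15 did not pass. Over all 13246 genes tested in plumes, 28.2% were called in this comparison, 13.0% as higher and 15.2% as lower. The median log2 difference was 1.28 over the 6 genes and -0.06 over all genes. In epithelium 0 of the 6 were higher and 2 were lower, TBX3 and TBX20, where 17.6% of all genes were called, 8.55% as higher and 9.10% as lower. The 6 genes were proposed with results of these libraries known, so these counts describe them and are no independent evidence. TBX4 and TBX5 also passed the filter only through the pulp group where each was high.

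**Figure D2:**
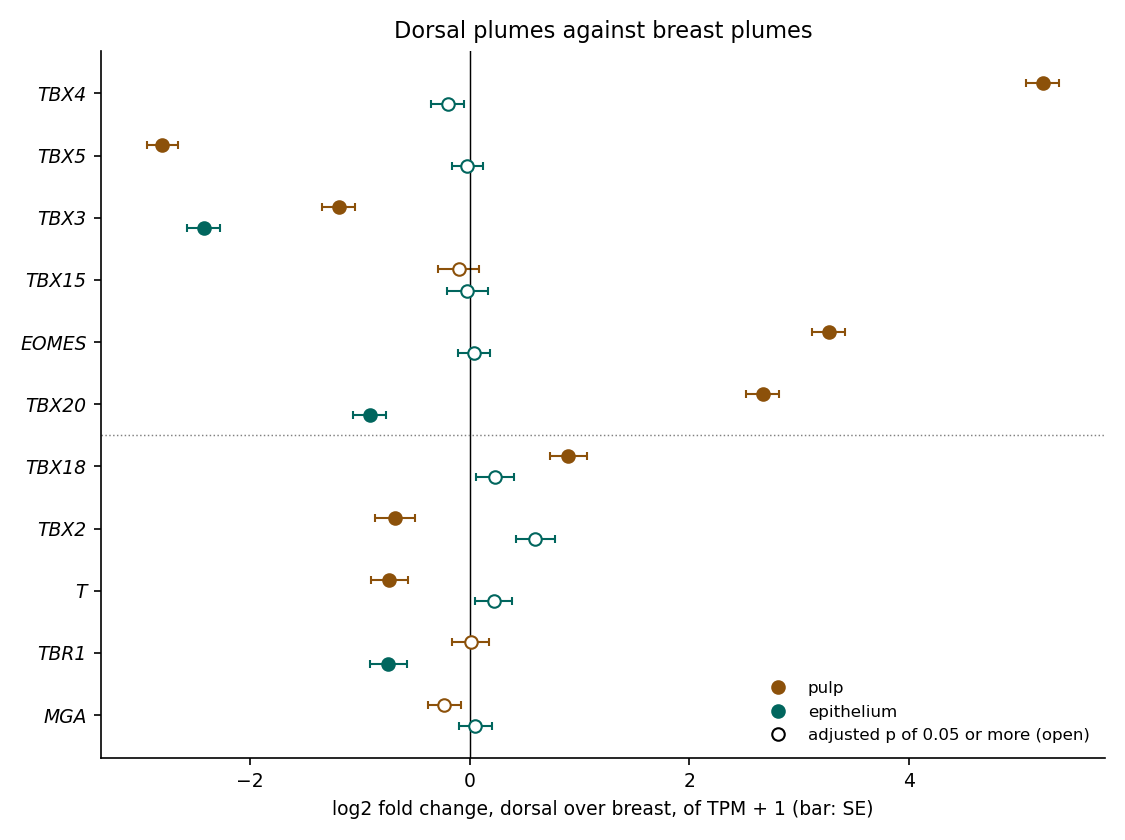
Log2 fold change of TPM + 1, dorsal over breast plumes, with its standard error, for the 6 genes (above the dotted line) and 5 other T-box genes that were tested, in pulp (brown) and epithelium (green), with open symbols for an adjusted p of 0.05 or more. TBX4 lies at 5.22 and TBX5 at -2.80 in pulp with epithelial values near 0, and TBX20 lies at 2.67 in pulp and -0.91 in epithelium.

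Whether the tract difference differed between pulp and epithelium was tested by an interaction term, the dorsal against breast difference in pulp minus that in epithelium. It passed for 5 of the 6 genes, where 22.7% of all genes passed. The term was 5.41 ± 0.21 for TBX4 (SE, adjusted p = 2.51e-05), 3.57 ± 0.21 for TBX20 (SE, adjusted p = 4.96e-05) and 3.23 ± 0.21 for EOMES (SE, adjusted p = 5.73e-05, limma). For TBX5 it was -2.77 ± 0.20 (SE, adjusted p = 9.44e-05) and for TBX3 1.24 ± 0.22 (SE, adjusted p = 0.00478, limma). On this scale TBX4, EOMES and TBX5 differed between tracts mainly in pulp, TBX20 in opposite directions and TBX3 more strongly in epithelium. With a pseudocount of 5 TPM the TBX3 term was 0.42 and no longer passed (adjusted p = 0.0586, limma). The terms of TBX4, TBX5 and EOMES, and the count that holds them, are given as descriptions. TBX4 and TBX5 passed the filter only through the pulp group where each was high, and EOMES through pulp alone. EOMES did not exceed 0.172 TPM in plume epithelium, so its term is close to its pulp difference of 3.27.

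Some markers of other cell types also differed between the plume pulps. The 6 endothelial markers in the table summed to 298.6 and 293.7 TPM in dorsal pulp, against 559.9 and 413.0 TPM in breast pulp, and 4 of the 6 were lower in dorsal pulp. The 6 leukocyte markers summed to 1487 and 1571 TPM in dorsal pulp, against 2879 and 2421 TPM in breast pulp, with 2 of 6 lower. Of the 8 keratinocyte markers 4 were lower in dorsal pulp, and of the 7 fibroblast markers 1 was higher. Over all genes 28.2% were called in this comparison, 13.0% as higher and 15.2% as lower. In either direction the leukocyte and fibroblast counts were near or below the 28.2%. So were those of smooth muscle (1 of 4 lower), melanocytes (1 of 6 lower) and T and NK cells (0 of 8). Of 2 glial markers tested 1 was lower. In epithelium the 6 melanocyte markers summed to 402.2 and 314.0 TPM in dorsal libraries, against 145.9 and 174.5 TPM in breast libraries. Of the 6 markers 4 were higher, where 17.6% of all genes were called, 8.55% as higher. None of the endothelial, leukocyte, keratinocyte, fibroblast or melanocyte markers was at 0 in both libraries of a plume group. The part of these cell types in the T-box differences was not tested.

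Between the lateral and the medial side of the remige, cut from the same follicles, no T-box gene passed the test. Of the 4 genes tested, TBX3, TBX15, TBX20 and EOMES, 0 were called in pulp and 0 in epithelium with limma. Of all 12954 genes tested in remiges, 0% were called in pulp and 0.00772% in epithelium, 0.00772% as lower, although 468 in pulp and 424 in epithelium had an unadjusted p under 0.05. TBX15 did not overlap between the sides in pulp, at 105.5 and 148.1 TPM laterally and 59.9 and 92.3 TPM medially, with a log2 difference of 0.74 ± 0.27 (SE, unadjusted p = 0.0298, adjusted p = 1, limma). The mean was 1.67 times higher on the lateral side, by 1.76 times in batch I and 1.60 times in batch II.

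TBX20 was lower in lateral than in medial remige pulp in both batches. It stood at 0.118 and 0.0684 TPM on the lateral side, against 1.18 and 0.848 TPM on the medial side, and did not overlap. The log2 difference of -0.88 ± 0.21 did not pass the adjustment (SE, unadjusted p = 0.0043, adjusted p = 0.443, limma). With the batch as a replicate block in the fit, the adjusted p was 0.217 for TBX20 and 0.205 for TBX15. TBX20 in remige epithelium was at 0.978 and 1.27 TPM on the lateral side and 1.38 and 0.984 TPM on the medial side, which overlapped. TBX3 overlapped between the sides in both tissues, and TBX15 in epithelium and EOMES in pulp did so as well. Within batch I and batch II, the lateral level was 1.09 and 1.32 times the medial level for TBX3 in pulp, 1.14 and 1.30 times for TBX3 in epithelium, 3.19 and 1.05 times for TBX15 in epithelium, and 0.934 and 0.753 times for EOMES in pulp. With the replicate block none of these 4 differences was called (adjusted p = 0.674 to 0.994, limma). The interaction of side and tissue was called for 0 of the 4 genes and 0% of all genes, of which 451 had an unadjusted p under 0.05 (limma).

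In remige pulp the batches differed more than the sides for some of the genes. The batch I libraries of remige pulp have row names without the barcode and lane of the others. The part of this difference between libraries in the levels was not tested. EOMES stood at 3.60 TPM in batch I and 0.288 TPM in batch II on the lateral side, and at 3.86 TPM in batch I and 0.383 TPM in batch II on the medial side. It was thus 12.5 and 10.1 times higher in batch I. TBX2 went the other way, at 1.22 TPM in batch I and 5.06 TPM in batch II laterally and 1.82 TPM in batch I and 6.48 TPM in batch II medially. TBX3 was 2.18 times higher in batch II laterally and 1.81 times medially. The summed T and NK cell markers moved with EOMES, at 187.4 TPM in batch I and 64.4 TPM in batch II of lateral pulp and at 208.5 TPM in batch I and 61.2 TPM in batch II of medial pulp. The 6 leukocyte markers summed to 2967 TPM in batch I and 1808 TPM in batch II of lateral pulp and 2872 TPM in batch I and 1475 TPM in batch II of medial pulp. Most of that sum was CD74, listed as II, at 2330 TPM in batch I and 1278 TPM in batch II of lateral pulp. In the same libraries PTPRC stood at 38.4 and 15.4 TPM, SPI1 at 77.8 and 46.0 TPM and LCP1 at 103.5 and 77.2 TPM. CSF1R stood there at 94.1 and 93.4 TPM and LAPTM5 at 323.1 and 298.9 TPM. The part of these cells in the EOMES level was not tested.

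**Figure D3:**
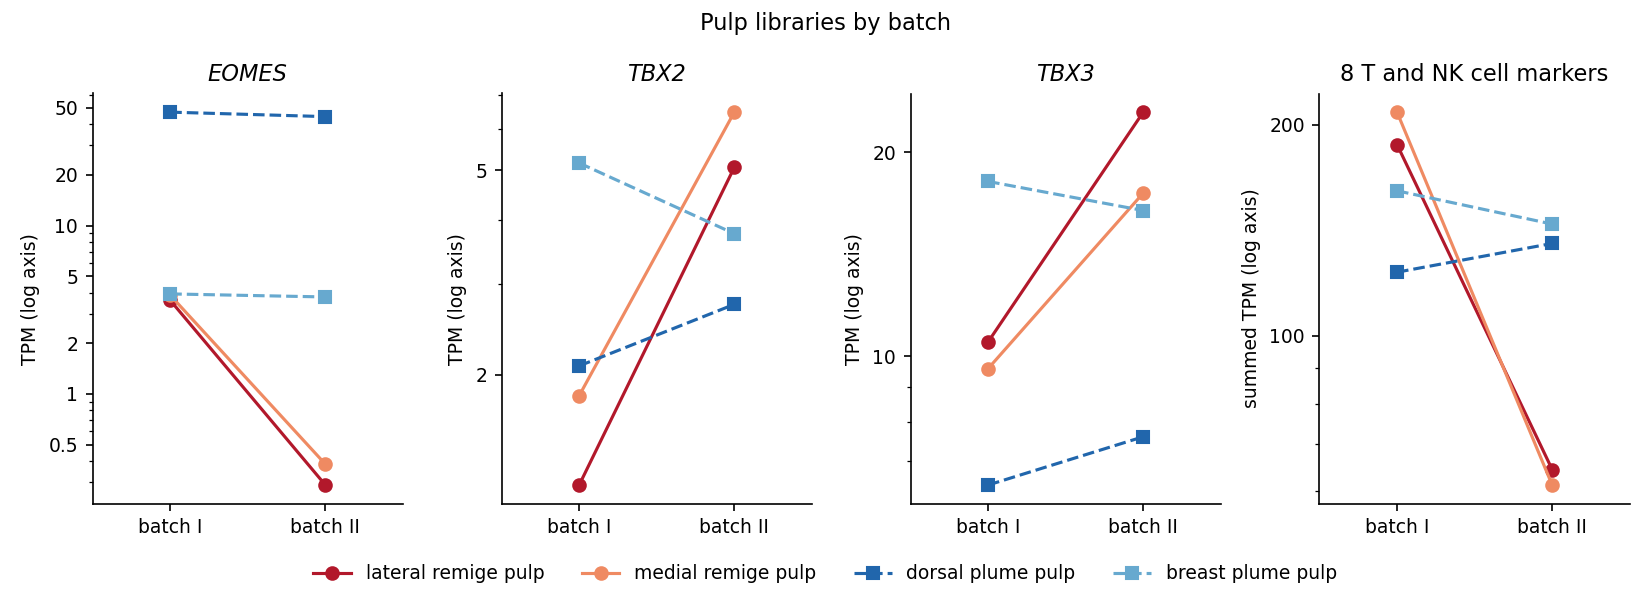
TPM of EOMES, TBX2 and TBX3, and the summed TPM of 8 T and NK cell markers, in batch I and batch II of the 4 pulp groups, on log axes, with solid lines for remiges and dashed lines for plumes. In remiges EOMES and the marker sum were higher in batch I and TBX2 and TBX3 higher in batch II, while EOMES in dorsal plume pulp stood at 47.2 TPM in batch I and 44.4 TPM in batch II.

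Averaged over both tracts, in plumes 6 of 6 were higher in pulp and 0 lower, where 77.2% of all genes were called, 47.0% as higher and 30.2% as lower. TBX15, EOMES, TBX4 and TBX5 passed the filter of 1 TPM through pulp alone, the tissue where they were high. Their calls, and the count that holds them, are given as descriptions. The log2 difference, averaged over both tracts, was 5.62 ± 0.14 for TBX15 (SE, adjusted p = 3.2e-09), 3.76 ± 0.10 for EOMES (SE, adjusted p = 5.09e-09) and 2.75 ± 0.11 for TBX4 (SE, adjusted p = 3.21e-08, limma). It was 1.39 for TBX5, 1.36 for TBX3 and 1.20 for TBX20, each with an adjusted p under 0.05. The average did not hold in each tract. TBX4 overlapped between the tissues in breast plumes, at 0.147 and 0.212 TPM in pulp and 0.0735 and 0.224 TPM in epithelium. TBX5 overlapped in dorsal plumes, at 0.0608 and 0 TPM in pulp and 0.0296 and 0.0280 TPM in epithelium. TBX20 in breast plumes was lower in pulp, at 1.08 and 1.38 TPM, than in epithelium, at 2.52 and 2.19 TPM. TBX3 was 6.76 times higher in pulp than in epithelium in dorsal plumes and 1.73 times in breast plumes.

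In remiges TBX15 was higher in pulp, and TBX3 and TBX20 were lower in pulp, among 4 genes tested, where 63.6% of all genes were called, 44.9% as higher and 18.7% as lower. TBX15 and EOMES passed the filter of 1 TPM through pulp alone in remiges, so their results here are given as descriptions. The log2 difference between pulp and epithelium was 6.40 ± 0.19 for TBX15 (SE, adjusted p = 6.67e-07) and -0.54 ± 0.15 for TBX20 (SE, adjusted p = 0.0161, limma). The TBX20 call was lost without batch II of lateral epithelium (adjusted p = 0.0591) or batch I of medial epithelium (adjusted p = 0.061, limma), and medial pulp and epithelium overlapped. For TBX3 the difference was -0.85 ± 0.30 (SE, adjusted p = 0.044, limma). TBX3 passed with 0.000791 when the batch was a block, but not without batch I of lateral pulp (-0.59, adjusted p = 0.117), batch I of medial pulp (-0.65, adjusted p = 0.132) or both (-0.39, adjusted p = 0.256), nor without any 1 of the 4 epithelium libraries (adjusted p = 0.0517 to 0.127, limma). In each batch TBX3 was lower in pulp, at 0.442 and 0.639 of the epithelial level on the lateral side and 0.458 and 0.634 on the medial side. EOMES was at 0.0841 and 0 TPM in lateral epithelium and listed at 0 in medial epithelium, and its log2 difference of 1.30 ± 0.52 did not pass (SE, adjusted p = 0.0635, limma), but did with the replicate block (adjusted p = 0.019) and without batch II of lateral pulp (adjusted p = 0.0192) or of medial pulp (adjusted p = 0.0188, limma). With a pseudocount of 0.1 TPM it was 3.47 and passed (adjusted p = 0.0149), and without batch I of lateral pulp (0.84) or of medial pulp (0.85) it did not pass (adjusted p = 0.164 and 0.162, limma).

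**Figure D4:**
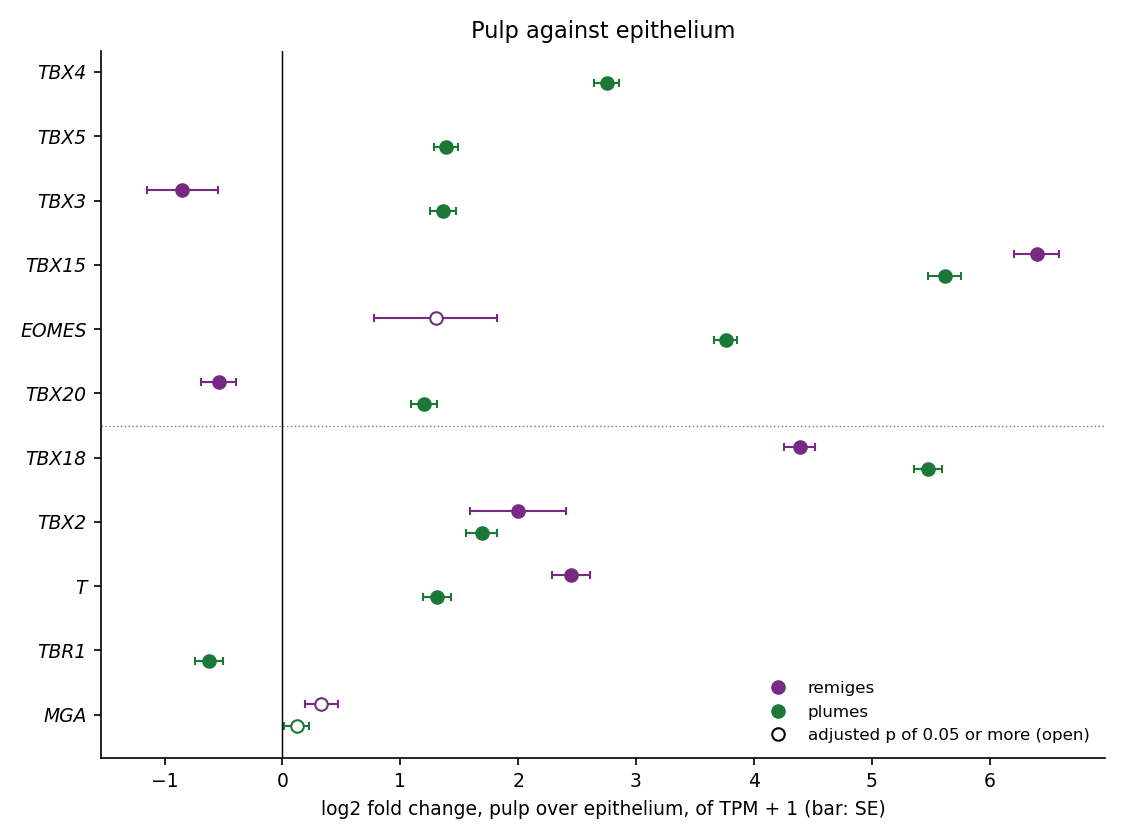
Log2 fold change of TPM + 1, pulp over epithelium, with its standard error, in remiges (purple) and plumes (green), for the 6 genes (above the dotted line) and 5 other T-box genes, with open symbols for an adjusted p of 0.05 or more and no symbol where a gene was not tested. TBX3 lies at -0.85 in remiges and 1.36 in plumes and TBX20 at -0.54 in remiges and 1.20 in plumes, while TBX15 lies above 5 in both.

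Among the other T-box genes, TBX18, a gene of the epicardium and of the dermal papilla of mouse hair, was the most abundant in pulp. It stood at 68.1 and 74.2 TPM in dorsal plume pulp, against 41.8 and 34.0 TPM in breast plume pulp, and did not overlap (log2 difference 0.90 ± 0.17, SE, adjusted p = 0.00515, limma). In remige pulp it stood at 21.0 and 21.7 TPM laterally and 22.4 and 18.2 TPM medially, which overlapped, and it lay below 0.5 TPM in all epithelium libraries. TBX2 was lower in dorsal pulp, at 2.08 and 2.74 TPM, against 5.16 and 3.76 TPM in breast pulp (log2 difference -0.68 ± 0.18, SE, adjusted p = 0.0244, limma). That call was lost without batch I of dorsal pulp (-0.54, adjusted p = 0.122) or of breast pulp (-0.49, adjusted p = 0.0934, limma). TBX2 was close to TBX4 in the genome, with 1 gene between them, and differed from it in tract.

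T, the brachyury gene of mesoderm and notochord, was at 1.23 TPM in both dorsal pulp libraries, against 3.09 and 2.35 TPM in breast pulp (log2 difference -0.73 ± 0.17, SE, adjusted p = 0.0126, limma). In remige pulp it was at 4.53 and 5.97 TPM laterally and 3.91 and 5.43 TPM medially. TBR1, known from neurons of the cerebral cortex, was at 0.337 and 0.128 TPM in dorsal epithelium, against 1.27 and 0.841 TPM in breast epithelium (log2 difference -0.74 ± 0.17, SE, adjusted p = 0.0205, limma). This call was lost in some of the alternatives, among them the fit without batch II of dorsal epithelium. The difference ran from -1.85 to -0.21 over the alternatives. Without batch I of breast epithelium TBR1 fell below the filter and was not tested. TBR1 passed the filter of 1 TPM through breast epithelium alone, the group where it was high (mean 1.06 TPM), so its call is given as a description. MGA, a partner of MAX that also carries a T-box, lay between 11.3 and 25.2 TPM in all 16 libraries and was called in 0 of the comparisons without the replicate block. TBX6, TBX10, TBX19 and TBX22 had group means below 1 TPM, and TBX10 is listed for plumes alone. Over all 11 T-box genes tested in plumes, 4 were higher and 4 lower in dorsal pulp, and 0 were higher and 3, TBR1 among them, lower in dorsal epithelium, where 28.2% of all genes were called in pulp and 17.6% in epithelium. With a pseudocount of 0.1 TPM, TBX18, TBX2 and T no longer passed in pulp, which left 5 of the 11.

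Genes of limb type and of the dorsoventral axis were set beside them as a list of 19, of which 15 were tested in plumes. In dorsal against breast pulp 7 were higher, 2 lower and 6 not called, where 28.2% of all genes were called, 13.0% as higher and 15.2% as lower, and the median log2 difference of the list was 0.71. EN1, a homeobox gene of ventral limb ectoderm and of somite-derived dermis in mice, stood at 23.0 and 22.7 TPM in dorsal pulp, against 0.0625 and 0.120 TPM in breast pulp (log2 difference 4.45 ± 0.15, SE, adjusted p = 1.39e-06, limma). ALX1, a homeobox gene of craniofacial mesenchyme, was listed at 0 in dorsal pulp, against 21.6 and 18.8 TPM in breast pulp (adjusted p = 1.39e-06, limma). SALL1, a zinc finger gene of limb and kidney, was at 1.86 ± 0.0791 TPM in dorsal pulp and 11.8 ± 2.35 TPM in breast pulp (SD, n = 2 each). None of these 3 genes overlapped between the plume pulps. In plumes EN1 and SHOX passed the filter through dorsal pulp alone, PITX1 through the dorsal groups alone and ALX1 through breast pulp alone. EN1, SHOX and PITX1 are among the 7 higher genes and ALX1 among the 2 lower. Their calls, and the counts that hold them, are given as descriptions.

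In dorsal against breast epithelium 4 of the 15 were higher, 1 lower and 10 not called, where 17.6% of all genes were called, 8.55% as higher and 9.10% as lower. WNT7A, a ligand of dorsal limb ectoderm, stood at 35.7 and 32.4 TPM in dorsal epithelium, against 3.97 and 3.34 TPM in breast epithelium, with a log2 difference of 2.91 there and 2.15 in pulp. PITX1, which acts upstream of TBX4 in the hindlimb, stood at 4.57 and 4.48 TPM in dorsal epithelium, against 0.0771 and 0.0783 TPM in breast epithelium. In pulp PITX1 stood at 3.11 and 3.07 TPM in dorsal libraries and was listed at 0 in breast libraries. It was thus found in both tissues of the dorsal plume, whereas TBX4 was found in pulp. Since PITX1 passed the filter through the dorsal groups alone, its call among the 4 is a description. TFAP2B was higher in dorsal epithelium by 1.47 and TWIST2, listed as CDERMO-1, by 0.79 (log2, adjusted p = 0.00462 and 0.0203, limma). In remiges 13 of the list were tested and 0 were called between the sides in either tissue. The members with the highest mean over the 8 remige libraries were ZIC1, at 149.1 and 170.0 TPM in lateral and 131.8 and 144.8 TPM in medial pulp, and LMX1B, at 50.6 and 50.9 TPM in lateral and 48.8 and 58.4 TPM in medial epithelium. In pulp LMX1B stood at 13.2 and 12.3 TPM laterally, against 23.5 and 23.4 TPM medially. These did not overlap, but the difference was not called (log2 difference -0.83 ± 0.14, SE, unadjusted p = 0.00069, adjusted p = 0.246, limma).

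Genes known as partners or targets of T-box factors in vertebrates formed a list of 20, of which 15 were tested. In dorsal against breast pulp 4 were higher, 4 lower and 7 not called, beside 28.2% of all genes called, and the median log2 difference of the list was -0.30. FGF10, the growth factor that TBX5 activates in the limb bud, stood at 3.28 and 3.71 TPM in dorsal pulp, against 32.4 and 28.9 TPM in breast pulp (log2 difference -2.82 ± 0.19, SE, adjusted p = 2.25e-05, limma). It was also at 19.0 and 13.1 TPM in lateral and 42.4 and 32.9 TPM in medial remige pulp, where TBX5 was below 0.1 TPM. GATA6, a heart factor that works with T-box proteins, stood at 53.6 and 61.5 TPM in dorsal pulp, against 17.5 and 15.9 TPM in breast pulp. BMP4, a signal of the dermis, was lower in dorsal pulp by -1.23 and CDKN1A, a cell cycle inhibitor listed as CIP1, was higher by 1.17 (log2, adjusted p = 0.000473 and 0.003, limma).

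In epithelium, where 17.6% of all genes were called, 1 of these 15 was higher, the connexin gene GJA5 (1.10), and 1 lower, BMP2 (-1.03), in dorsal plumes, and both moved the opposite way in pulp (-0.95 and 0.69, log2). Between remige sides 0 of 15 were called in either tissue. The largest log2 differences of the list between the remige pulps, lateral over medial, were 1.25 for ASIP and -1.19 for FGF10. Their unadjusted p was 0.0136 and 0.00185 (adjusted p = 0.754 and 0.312, limma), and neither gene overlapped between the sides. The members with the highest mean over the 8 remige libraries, the connexin gene GJA1 and SNAI2 of mesenchymal transition, stood in pulp at 3165 and 378.1 TPM on the lateral and 2971 and 337.2 TPM on the medial side (means of 2 libraries). Between the tissues, 77.2% of all genes were called in plumes and 63.6% in remiges. Of the limb and dorsoventral genes 11 of 15 were higher and 4 lower in pulp of plumes, and 10 of 13 higher and 2 lower in pulp of remiges, led by ZIC1 (6.93, log2), SIM1 (5.16), TWIST2 (5.07) and MEIS1 (4.94) in remiges. Of the partners and targets 9 of 15 were higher in pulp in each feather type, with 6 lower in plumes and 5 in remiges. TWIST1 was higher in pulp by 5.66 in plumes and 5.04 in remiges, and SHH, a signal of the barb epithelium, lower by -4.45 in plumes and -4.70 in remiges (log2). Between pulp and epithelium ASIP, the agouti signal whose dorsal border TBX15 sets in mice, was higher in pulp by 7.82 in plumes and 5.69 in remiges (log2, adjusted p = 1.01e-07 and 3.88e-06, limma). In remiges ZIC1, SIM1, TWIST2 and ASIP, among others of these lists, passed the filter through pulp alone. TWIST1 did so in both feather types, and all these calls are given as descriptions. ASIP stood at 4196 and 2972 TPM in dorsal plume pulp and at 1242 and 1140 TPM in breast plume pulp, and did not overlap, but missed the threshold (log2 difference 1.57 ± 0.51, SE, adjusted p = 0.0515, limma). TBX15 overlapped between these pulps.

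The genes whose levels followed the 6 most closely were taken as the 3 with the highest Pearson correlation over the 16 libraries, among 10160 genes, as a description of shared patterns across groups. For TBX4 they were LRRN3, NETO1 and GABRA2, each of which was highest in dorsal pulp, with means of 46.9, 6.57 and 6.64 TPM. For TBX5 they were TMC3, ALX1 and OSR2, with means of 17.9, 20.2 and 11.4 TPM in breast pulp. TBX15 was followed by NALCN, GPR124 and FSTL1, which were high in all 4 pulps. EOMES was followed by KCTD8, CHIA and XRCC5, and TBX20 by SLITRK2, SH3D19 and DAAM1, each with its highest mean in dorsal pulp. TBX3 was followed by MXI1, KIFC3 and ENPP4, which each had their lowest mean in dorsal epithelium. Among the 6 genes themselves, TBX4 correlated with EOMES at r = 0.87 and with TBX20 at r = 0.86 over the 16 libraries, and all 3 were at their highest in the same 2 dorsal pulp libraries. TBX4 correlated with TBX5 at r = -0.14.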

How the data were processed

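RNA of 8 groups was measured with 2 libraries each (4 µg RNA, reads of 50 bp, single end). Reads were trimmed by the authors and mapped to galGal4 in Partek software, and RPKM values per gene and library were deposited. The labels also name TopHat2. Versions, annotation, strand setting and the treatment of multiply mapped reads are not given in the sources used here. The deposited RPKM values are not counts: of the low values 11.5% in remiges and 12.0% in plumes lay within 0.05 of a whole multiple of their step, so no reads were recovered and no counting error is given. The step check used 87122 and 86265 values.

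RPKM were rescaled to TPM. The values log2(TPM + 1) were tested with the functions lmFit and eBayes (with a trend) of limma, version 3.58.1, under R 4.3.3. There was 1 fit per table, over its 8 libraries and 4 groups, on genes whose mean reached 1 TPM in a group (12954 of 15795 in remiges, 13246 of 15696 in plumes). The Benjamini-Hochberg adjustment ran over all of them, and a gene was called at an adjusted p under 0.05. With 2 libraries per group, p-values rest on a spread shared by the 4 groups of a table. The script was tested on simulated data. Python 3.11.15 and matplotlib 3.10.9 drew the figures.

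The labels give each library a batch, which pairs the libraries. Batch differences correlated between groups with r of 0.45 to 0.81 in remiges and 0.00 to 0.12 in plumes. The fit without the block is reported and the fit with it is an alternative, besides quantile normalization, upper quartile scaling, untransformed RPKM, a pseudocount of 0.1 or 5 TPM, a filter at 5 TPM or none, robust eBayes, only the 2 groups compared, and leaving out each library. Leaving out both batch I remige pulp libraries, whose row names lack the barcode and lane of the others, was chosen after seeing the data.

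The members, gene lists and tests were chosen with earlier results of these data known. Named are the 6 genes, the other T-box genes and the 3 closest genes by correlation for each of the 6. Of the limb and the partner lists, up to 4 per comparison that changed most among those called are named. Where none was called, the 2 with the highest mean over the libraries of the table are named. The differences of ASIP, FGF10 and LMX1B between the remige pulps were added outside this rule, for their size. Genes were matched by symbol, with older symbols and neighbours from RefSeq (assembly GRCg7b), whose coordinates are not used because the files use another build. TBX1, TBX6L and TBX21 were searched for by symbol and are listed for neither feather type.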

Additional observations from a re-analysis of the deposited data

Results flagged for a closer look

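The difference between dorsal and breast plumes was not the same in pulp and epithelium for 7 of the 11 T-box genes tested in plumes. The test was limma's interaction term at an adjusted p under 0.05, which 22.7% of all genes passed. The calls of TBX4, TBX5, EOMES, T and TBX2, and the count that holds them, are descriptions. TBX4 and TBX5 passed the filter only through the pulp group where each was high, and EOMES, T and TBX2 through pulp alone. On the log2 scale the difference in pulp minus that in epithelium was 5.41 for TBX4, 3.57 for TBX20, 3.23 for EOMES, 1.24 for TBX3 and -2.77 for TBX5. It was -0.95 for T and -1.28 for TBX2, which were lower in dorsal pulp. In epithelium neither was called between the tracts (log2 difference 0.22 for T, adjusted p = 0.433, and 0.60 for TBX2, adjusted p = 0.0535, limma). T stood at 0.358 and 0.151 TPM in dorsal and 0.0752 and 0.0764 TPM in breast epithelium. TBX2 stood at 0.655 and 0.619 TPM in dorsal and 0.0515 and 0.105 TPM in breast epithelium. Both were thus below 1 TPM there, higher in dorsal libraries and without overlap. The epithelial difference of TBX2 ran from 0.15 to 2.06 over the alternatives and passed in some of them. The call of T was lost without either library of breast epithelium, batch I of dorsal epithelium or batch I of dorsal pulp (adjusted p = 0.0517 to 0.0714, limma).

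The TBX20 values lay in opposite directions in the pulp of the 2 feather types. In remige pulp, where no value exceeded 1.18 TPM, each narrow-vane library lay below each wide-vane library. In plume pulp each narrow-vane library lay above each wide-vane library. The mean TPM of TBX20 in lateral remige pulp was 0.0921 of that in medial remige pulp, and in dorsal plume pulp it was 10.7 times that in breast plume pulp. The remige difference was not called (log2 difference -0.88, adjusted p = 0.443, limma). The difference between the feather types was not tested, since the tables were made separately.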

How the results depend on the processing

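Of 703 values of 41 log2 fold changes of T-box genes under the alternatives, 659 kept their direction and their side of the threshold, 25 lost the call, 16 gained one and 3 turned. The 3 were TBX15 in dorsal against breast pulp without batch I of breast pulp (0.09) or of dorsal pulp (0.00), with a range of -0.28 to 0.09 over the libraries left out, and the interaction of TBX18 in plumes, which was -0.04 with a pseudocount of 0.1 TPM. That pseudocount left 5 T-box genes called in dorsal against breast pulp in place of 8, for reasons not tested. Leaving out 1 library gave 7 to 8 calls there and 1 to 4 in epithelium, where the 1 came without batch I of breast epithelium and the fit without omission gave 3. The size of a log2 difference moved with the pseudocount: for TBX4 in dorsal against breast pulp it was 7.27 with 0.1 TPM and 3.21 with 5 TPM, and for TBX5 it was -5.62 and -1.15, all with an adjusted p under 0.05 (limma).

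With the batch as a replicate block, EOMES (adjusted p = 0.019) and MGA (adjusted p = 0.0411, limma) were also higher in remige pulp than in remige epithelium, which made 8 calls in place of 6, and the block changed no other call of the T-box genes. The call of EOMES is a description, since it passed the filter in remiges through pulp alone. Over all genes it raised the calls between lateral and medial pulp to 36 and in epithelium to 6, where the fit without it gave 0 and 1. With 2 libraries a group and no counts, levels below 1 TPM carry an unknown counting error, and a difference between remige sides may be missed.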
